A study of Mus musculus with 2 samples.

Results

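The miR-29 family genes of the mouse are Mir29a, Mir29b-1, Mir29b-2 and Mir29c. They were found by their Ensembl identifiers, matched without version to the GENCODE M21 annotation on mm10, and all 4 were among the 1973 miRNA genes counted. The samples were 2 microRNA-seq libraries of short RNA from the liver of healthy mouse embryos of strain B6NCrl at day 12.5, with males and females pooled. For replicate 1, livers were pooled from 120 embryos, and for replicate 2 from 88. Both belong to 1 group, are numbered as biological replicates and carry the same donor identifier, so no condition was compared, and the spread between them may in part be technical.

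A miRNA is cut from a hairpin in its primary transcript, and either arm of the hairpin (5p or 3p) can yield a mature strand that guides Argonaute proteins to messenger RNAs. Pairing is led by the seed, bases 2 to 8 of the mature strand. The miR-29 family is known for repressing collagen and other matrix genes, and its fall in hepatic stellate cells accompanies liver fibrosis in mice and humans. Repression of the de novo DNA methyltransferases DNMT3A and DNMT3B by the family was described in human cells.

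The family lies in 2 pairs of neighbouring hairpins. Mir29a (ENSMUSG00000065610.1) spans chromosome 6, 31062660 to 31062747, and Mir29b-1 (ENSMUSG00000065604.1) spans 31063023 to 31063093 on the same minus strand, 275 bases away. Mir29a overlaps no other gene of M21, and Mir29b-1 overlaps 2 bases of an exon of the long noncoding RNA gene Gm27019. The second pair lies on the plus strand of chromosome 1, with Mir29b-2 (ENSMUSG00000065412.2) at 195037040 to 195037120 and Mir29c (ENSMUSG00000065548.1) at 195037547 to 195037634, 426 bases apart. Both hairpins of this pair lie within the span of the noncoding host gene A330023F24Rik and overlap an exon of it. They also lie within the span of Cd46 on the other strand and overlap an untranslated exon stretch there. How many bases fall in these exons was not measured. For the 2 Mir29b genes the version of the identifier in M21 is not the counted one, so the counted interval may differ from these coordinates.

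The mature 3p strands show what the genes share and what tells them apart. They are given as in RefSeq (GRCm38.p6), 5′ to 3′, with the seed in capitals.
miR-29a-3p: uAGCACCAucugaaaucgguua
miR-29c-3p: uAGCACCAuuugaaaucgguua
miR-29b-3p: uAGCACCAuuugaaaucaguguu

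All 3 strands carry the seed AGCACCA, which no mature miRNA of another gene held among the 1738 mature entries of the table. Counted from 1 at the 5′ end, miR-29a-3p and miR-29c-3p differ by C10U and agree at the other 21 positions. From miR-29c-3p to miR-29b-3p the changes are G18A, U21G and A22U over 22 compared bases. The strand miR-29b-3p is encoded in full by both Mir29b-1 and Mir29b-2, whereas miR-29a-3p and miR-29c-3p were each found in 1 of the 1005 hairpins of the table. A read of exactly miR-29b-3p therefore fits both loci, and reads aligned to several places were kept apart from the genes in these tables.

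The 5p strands differ between all 4 genes, and each of them was found in its own hairpin alone. They are shown because they are the part of the Mir29b hairpins that separates the copies. Capitals again mark bases 2 to 8.
miR-29a-5p: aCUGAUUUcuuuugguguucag
miR-29c-5p: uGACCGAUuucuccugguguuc
miR-29b-1-5p: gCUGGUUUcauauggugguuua
miR-29b-2-5p: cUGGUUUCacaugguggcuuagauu

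The hairpins of Mir29b-1 and Mir29b-2 share a run of 25 bases, which is the mature 3p strand (in capitals here) and the 2 bases before it.
Run shared by Mir29b-1 and Mir29b-2: ucUAGCACCAUUUGAAAUCAGUGUU

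The run ends with the last base of the mature strand. Reads that start 3 or more bases before it, or run past its end, differ between these 2 copies, as do 5p reads. Mir29c shares up to 22 bases with Mir29b-1, and Mir29a shares at most 14 bases with any member. Of the windows of 22 bases in each hairpin, 67 of 67 in Mir29a, 66 of 67 in Mir29c, 56 of 60 in Mir29b-2 and 45 of 50 in Mir29b-1 occurred in no other hairpin.

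**Figure D1:**
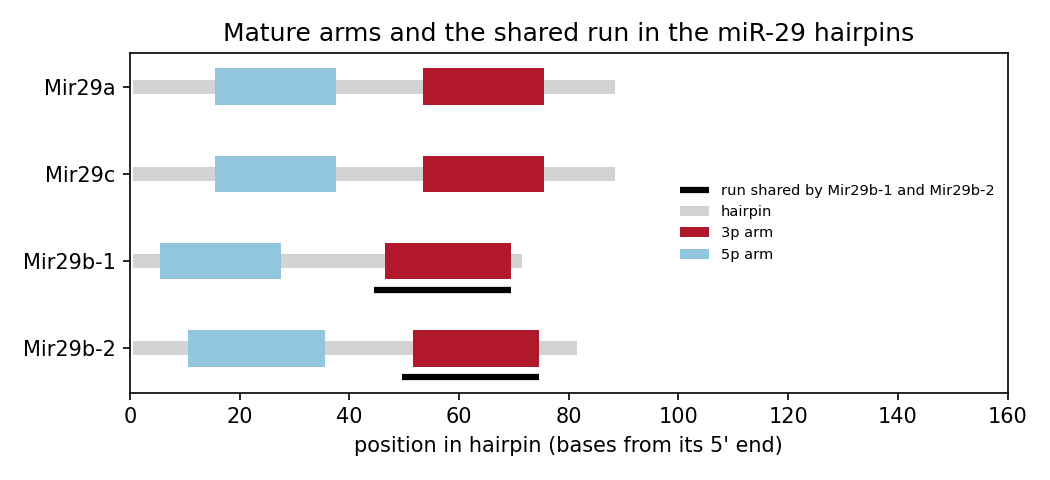
Hairpins of the 4 genes drawn from their 5′ ends, with position in bases on the horizontal axis, the 5p arm in light blue, the 3p arm in red and the run shared by Mir29b-1 and Mir29b-2 as a black line. The 25-base run covers the whole 3p arm of both genes and leaves both 5p arms uncovered.

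Sense reads of miRNA genes numbered 3447858 out of 11057424 in replicate 1, and 3534816 out of 11013976 in replicate 2. Levels below are sense counts per 1000000 of those (CPM), so 1 count is 0.290 CPM in replicate 1 and 0.283 CPM in replicate 2. Intervals are exact 95% Clopper-Pearson intervals, which cover counting error only, since the reads carry no molecular identifiers. The hepatocyte miRNA Mir122 stood at 60913 and 47128 CPM and the endothelial Mir126a at 68816 and 68164 CPM. Of the 5 neural marker genes counted, 4 had 0 counts and the fifth, Mir9-3, had 6 and 4. These are copies of Mir124a and Mir9, and both arms of Mir9-2 and Mir9-3 are also encoded at other loci, so their unique counts do not check for neural RNA. The 3 erythroid markers summed to 1.69% of the counts in replicate 1 and 3.74% in replicate 2. Most of that sum was Mir451a, at 12422 and 32496 CPM, while Mir144 stood at 3300 and 4042 CPM and Mir486 ran the other way, at 1204 and 892 CPM. These are bulk livers, so a smaller share of a cell type and less of a miRNA per cell cannot be told apart.

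Most of the uniquely placed counts of the miR-29 family in day 12.5 liver were those of Mir29a. Mir29a had 3567 counts in replicate 1 and 3761 in replicate 2, or 1035 and 1064 CPM, a mean of 1049 ± 20.8 CPM (SD, n = 2). It ranked 99 of 1973 genes by mean level. Its closest paralogue in sequence, Mir29c, had 433 and 474 counts, or 126 and 134 CPM, a mean of 130 ± 6.02 CPM (SD, n = 2), and ranked 200. Both genes passed 10 CPM in both libraries, as did 15.3% of all genes counted.

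The 2 genes that encode miR-29b-3p had few counts. Mir29b-1 had 33 counts in replicate 1 and 20 in replicate 2, or 9.57 and 5.66 CPM, a mean of 7.61 ± 2.77 CPM (SD, n = 2). Mir29b-2 had 16 and 7 counts, or 4.64 and 1.98 CPM, a mean of 3.31 ± 1.88 CPM (SD, n = 2). Both stayed under 10 CPM in each library, at ranks 323 and 382. These values do not bound the level of miR-29b-3p, because a read of that exact strand cannot be given to either gene. Reads aligned to several places numbered 3180324 in replicate 1 and 3427344 in replicate 2, or 0.922 and 0.970 times the sense counts on all miRNA genes, and how many of them were miR-29b-3p was not measured here.

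The order Mir29a, Mir29c, Mir29b-1, Mir29b-2 was the same in both libraries. The intervals of Mir29a (1001 to 1069 and 1030 to 1099 CPM) lay far above those of Mir29c (114 to 138 and 122 to 147 CPM), and those of Mir29c above both Mir29b genes. The neighbours at the low end were close. Mir29b-1 spanned 6.59 to 13.4 CPM in replicate 1 and 3.46 to 8.74 CPM in replicate 2, and Mir29b-2 spanned 2.65 to 7.54 and 0.796 to 4.08 CPM, so their intervals overlapped within each library. The opposite strand of the 4 genes had 0 counts in both libraries.

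**Figure D2:**
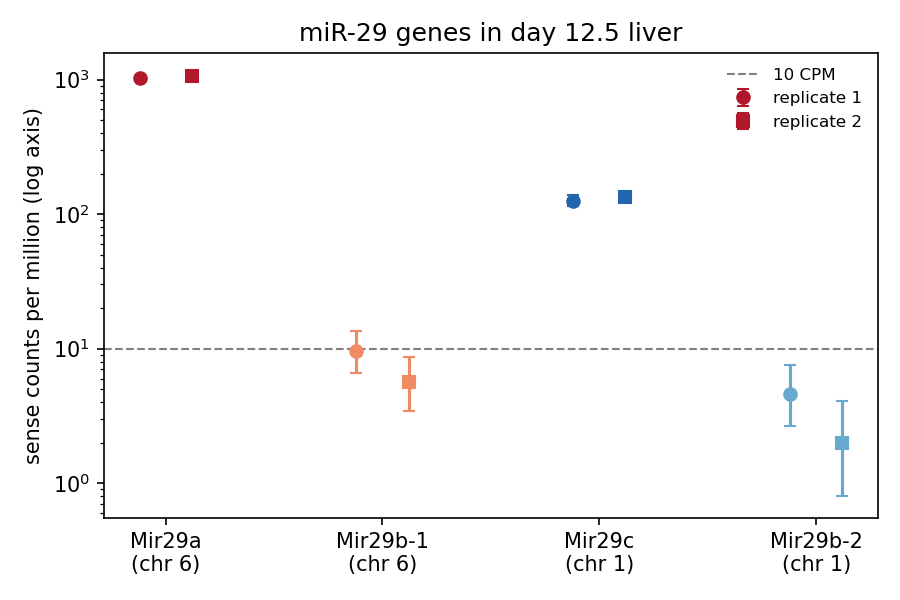
Level of each gene in sense CPM on a log axis, with replicate 1 as circles, replicate 2 as squares, exact 95% counting intervals as bars and the 10 CPM line dashed. Mir29a stands near 1049 CPM and Mir29c near 130 CPM, while both Mir29b genes lie under the line in each library.

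**Figure D3:**
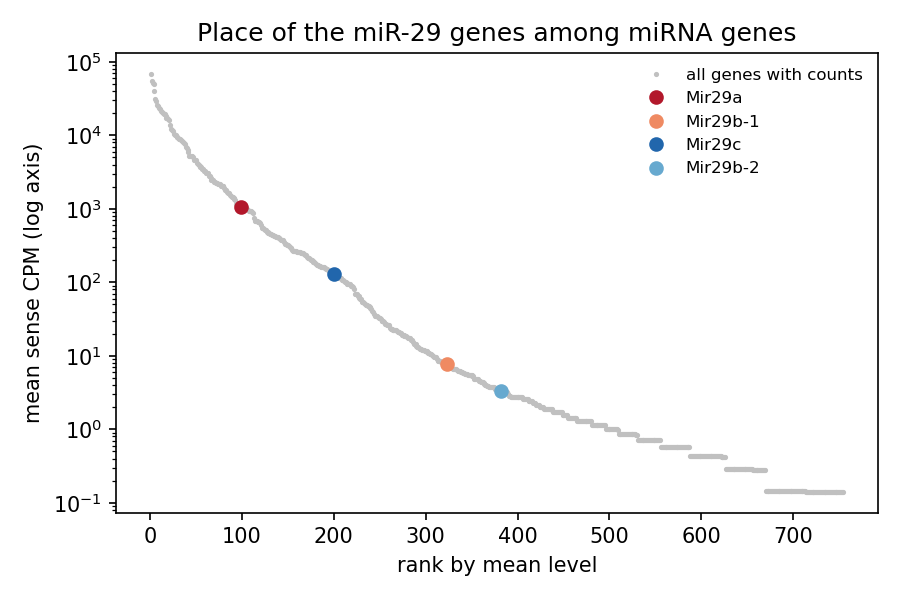
Mean sense CPM on a log axis against rank for the 754 genes with at least 1 count, with the 4 miR-29 genes coloured. Mir29a stands at rank 99, Mir29c at 200, Mir29b-1 at 323 and Mir29b-2 at 382.

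Together the 4 genes held 0.117% of the sense counts in replicate 1 (95% interval 0.114 to 0.121) and 0.121% in replicate 2 (0.117 to 0.124), a mean of 0.119% ± 0.00222 (SD, n = 2). Mir29a alone made up 88.1% and 88.2% of the family's counts and Mir29c 10.7% and 11.1%. The Mir29b genes together made up 1.21% of the family's counts in replicate 1 and 0.634% in replicate 2. These are shares of uniquely placed counts. Reads of exactly miR-29b-3p are left out of them, so they do not give the family's full level or the part of miR-29b in it.

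The locus on chromosome 6 gave about 8 times the unique counts of the locus on chromosome 1. Mir29a and Mir29b-1 summed to 3600 counts in replicate 1 and 3781 in replicate 2, against 449 and 481 for Mir29c and Mir29b-2. The ratio of the loci was 8.02 (95% interval 7.27 to 8.86) in replicate 1 and 7.86 (7.15 to 8.66) in replicate 2, a mean of 7.94 ± 0.111 (SD, n = 2). It did not differ detectably between the libraries (two-sided Fisher's exact test, adjusted p = 0.781 over 5 ratios). An exact permutation test over 2 libraries cannot give a two-sided p under 0.5, so none is given.

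That ratio is carried by Mir29a and Mir29c, whose hairpins are both 88 bases long and whose 3p strands each occur in a single hairpin. Mir29a exceeded Mir29c 8.24-fold (95% interval 7.45 to 9.12) in replicate 1 and 7.93-fold (7.21 to 8.75) in replicate 2, a mean of 8.09 ± 0.214 (SD, n = 2). The strands differ by the single change C10U, and how far the alignment tolerated mismatches was not stated in the labels or files. How well each strand was captured was not measured, so the ratio need not be a ratio of true amounts. The chromosome 6 copy was also ahead among the Mir29b genes, with Mir29b-1 over Mir29b-2 at 2.06 (1.10 to 4.01) and 2.86 (1.16 to 8.00). These lower bounds stand just above 1 and rest on 16 and 7 counts of Mir29b-2.

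Within each locus the neighbours, which leave a common primary transcript, differed far more than the loci did. Mir29a exceeded Mir29b-1 by 108-fold (95% interval 76.8 to 157) in replicate 1 and 188-fold (122 to 308) in replicate 2. Mir29c exceeded Mir29b-2 by 27.1-fold (16.5 to 47.8) and 67.7-fold (32.6 to 169). Both ratios were lower in replicate 1, and neither difference between the libraries passed Fisher's exact test (adjusted p = 0.138 for each, over 5 ratios). Because miR-29b-3p is left out of these counts, they compare the separable reads of each hairpin and not the output of the 2 hairpins.

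**Figure D4:**
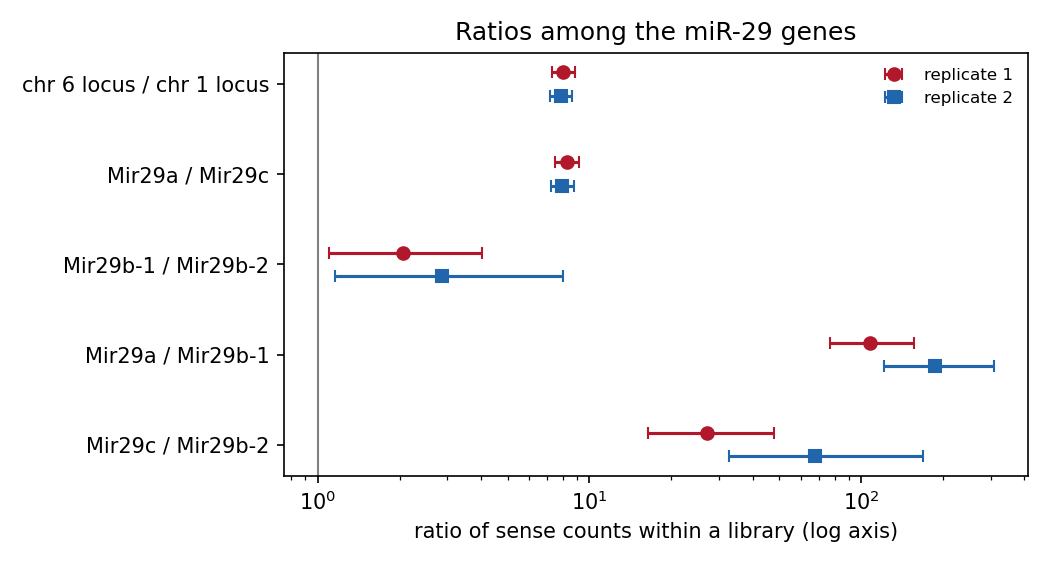
Ratios of sense counts within each library on a log axis, with replicate 1 as red circles, replicate 2 as blue squares, exact 95% counting intervals as bars and a line at 1. The locus ratio and Mir29a over Mir29c lie near 8 in both libraries, and the ratios that involve a Mir29b gene have wide bars.

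Between the 2 pools, Mir29a and Mir29c differed little and the sparse Mir29b genes were not resolved. The log2 ratios below divide replicate 1 by replicate 2, after adding 0.5 counts, on TMM-scaled library sizes. The ratio was -0.10 for Mir29a (95% interval -0.17 to -0.04), -0.16 for Mir29c (-0.35 to 0.03), 0.68 for Mir29b-1 (-0.15 to 1.57) and 1.11 for Mir29b-2 (-0.20 to 2.69). By a two-sided exact binomial test with Benjamini-Hochberg adjustment over 464 genes, 1 of the 4 genes, Mir29a (adjusted p = 0.00644), differed, and it was lower in replicate 1. This test compares 2 libraries for counting error alone, and 40.3% of all 464 genes passed it. Those lower in replicate 1 made up 22.4% of the 464 and those higher 17.9%. Of the 3 erythroid markers, Mir451a and Mir144 were lower and Mir486 higher in replicate 1 by the same exact test, and the part of erythroid cells in these differences was not tested.

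The call for Mir29a rests on the scaling. With total sense counts as library sizes its log2 ratio was -0.04 (adjusted p = 0.385, exact binomial test), and with DESeq2 size factors -0.08 (adjusted p = 0.0612). On total counts the calls over all genes were 101 higher and 77 lower in replicate 1, against 83 higher and 104 lower on TMM sizes. In edgeR's negative binomial exact test 0 of the 4 genes passed with an assumed coefficient of variation of 0.1, where 2.59% of genes did, although Mir29a was past an unadjusted p of 0.05 in the binomial test (p = 0.00221). The absolute log2 ratio of Mir29a was as large as or larger than that of 21.8% of the 464 genes, and that of Mir29c 30.4%. For the sparse Mir29b-1 and Mir29b-2 these shares were 83.2% and 92.9%.

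**Figure D5:**
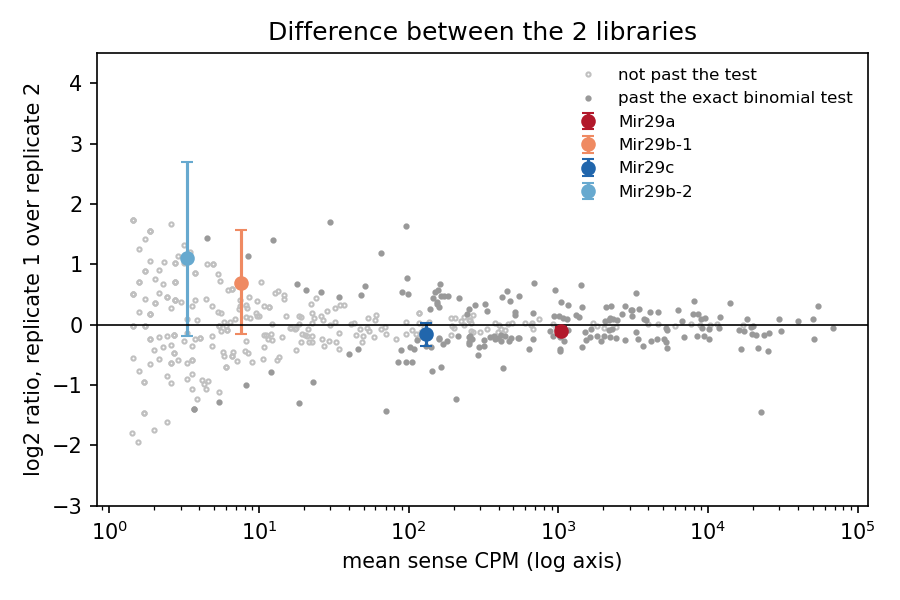
Log2 ratio of replicate 1 over replicate 2 against mean sense CPM on a log axis for 464 genes (filled grey, past the exact binomial test; open grey, not past it), with the miR-29 genes coloured and their 95% intervals as bars. Mir29a and Mir29c lie near 0, and the intervals of both Mir29b genes are wide and take in 0.

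The genes closest to the members in level over the 2 libraries were taken by Euclidean distance of log2(CPM + 1), which with 2 libraries describes level only. For Mir29a they were Mir3071 (986 and 1052 CPM, distance 0.07) and Mir503 (975 and 1070 CPM, distance 0.09). For Mir29c they were Mir293 (128 and 126 CPM, distance 0.09) and Mir598 (119 and 124 CPM, distance 0.14). For Mir29b-1 they were Mir19b-2 (8.70 and 6.22 CPM, distance 0.17) and Mir3076 (8.41 and 6.51 CPM, distance 0.24). Mir29b-2, with under 10 counts in replicate 2, was given no neighbours.

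Other miRNAs reported to repress DNA methyltransferase genes, most of them in human cells, were set beside the family. All 6 passed 10 CPM in both libraries. Mir148a, at 1203 and 1076 CPM, a mean of 1140 ± 90.1 CPM (SD, n = 2), ranked 96, against 99 for Mir29a. Its relatives Mir148b (413 ± 21.1 CPM) and Mir152 (116 ± 14.2 CPM) lay lower. Mir101b, better known for repressing Ezh2, led the list at 4162 ± 411 CPM. Its paralogue Mir101a, which shares no whole mature strand with it, stood at 114 ± 11.2 CPM. Mir342 stood at 2659 ± 307 CPM (SD, n = 2 for each).

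The list shared no direction between the libraries. By the exact binomial test Mir148a and Mir342 were higher and Mir148b, Mir101a and Mir101b lower in replicate 1. That is 5 of 6 called, against 40.3% of all genes. Calls by this test grow with depth. With a minimum of 100 counts, which all 6 passed, 184 of 289 genes were called. The median log2 ratio of the list was -0.03, beside -0.03 for all 464 genes. On total counts 3 were higher and 1 lower, where 101 of all 464 genes were higher and 77 lower. None of the 6 passed edgeR's test at a coefficient of variation of 0.1. Only 2.59% of the 464 genes did, so that says little about the list.

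The list of miRNAs linked to fibrosis and matrix genes held some of the highest and some of the lowest levels. Mir21a, which promotes fibrosis, stood at 25499 ± 893 CPM (SD, n = 2) and ranked 8 of 1973 genes. Mir214, expressed with Mir199a-2 from the noncoding transcript Dnm3os in mesenchyme, stood at 4543 ± 398 CPM, Mir199b at 293 ± 61.9 CPM, Mir199a-2 at 46.0 ± 7.70 CPM and Mir199a-1 at 4.89 ± 2.52 CPM. The Ctgf-repressing Mir30c-1 and Mir30c-2 stood at 95.3 ± 3.99 and 59.6 ± 3.89 CPM, and Mir133a-1 and Mir133a-2 had 0 counts. The floor set for 0 counts was 3 counts, or 0.870 CPM of unique reads in replicate 1 and 0.849 in replicate 2. It is a fixed setting and not a Clopper-Pearson limit. Copies such as the Mir199a, Mir30c and Mir133a pairs can lose reads to several placements as the Mir29b genes do. Whether Mir199b, a relative of the Mir199a pair, loses reads in the same way was not tested, so its level need not be full.

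Of the 7 fibrosis and matrix genes tested, Mir21a, Mir214, Mir199b and Mir199a-2 were lower in replicate 1 by the exact binomial test and 0 were higher. Of all 464 genes 22.4% were lower and 17.9% higher. With a minimum of 100 counts, which the called genes passed, 102 of 289 genes were lower and 82 higher. Mir214 and Mir199a-2 come from 1 transcript, so they are not separate cases. On total counts Mir199a-2 was no longer called and 3 were lower, where 77 of all 464 genes were lower and 101 higher. The median log2 ratio was -0.15, beside -0.03 for all genes. None of the 7 passed edgeR's test at 0.1, where only 2.59% of the 464 genes did, so that says little about the list.

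The messenger RNAs of the family's targets were not measured, but their sequences show what the seed can pair with. In the 3′ untranslated regions of GENCODE M21 (mm10, the principal transcript with the longest region per gene, very short regions left out), the motif TGGTGCT, which pairs with bases 2 to 8 of the 3p strands, was searched on the transcript strand. It occurred in 24 of 43 collagen genes (55.8%) and in 2549 of all 20571 genes (12.4%). Per 10 kb of region there were 7.72 matches in collagen genes and 1.08 in all genes, and the median region was 971 bases long in collagen genes and 866 in all genes. The longer motif TGGTGCTA, which contains the first and adds the base opposite position 1, occurred in 15 collagen genes (34.9%) and in 2.74% of all genes.

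Among the DNA methyltransferase genes, Dnmt3a, a de novo methyltransferase, had 5 matches of the shorter motif in 6696 bases, and Dnmt3b, the second de novo enzyme, had 1 in 1331 bases. Dnmt1, the maintenance enzyme, had none, but its region was only 312 bases long, too short for the absence to tell it from the other enzymes. Examples are shown for 2 fibrillar collagens and both de novo enzymes. In each the match nearest the stop codon is given (the longer motif where there is one), in capitals, with the 14 bases before it, mm10, plus strand.
Col1a1, chr11:94952524-94952545: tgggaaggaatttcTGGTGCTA
Col3a1, chr1:45348968-45348989: tcaaaatgtctcaaTGGTGCTA
Dnmt3a, chr12:3911391-3911412: ccaggggaggtagcTGGTGCTA
Dnmt3b, chr2:153686613-153686633: agagtagcccggcaTGGTGCT

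A match to the seed is a description of the letters and not a measured site. The stretches before the capitals differ among the 4 genes, and the 3p strands of all 4 miR-29 genes have the same seed, so this motif does not separate the members.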

How the data were processed

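The authors deposited raw read counts per miRNA gene for each library, with columns for both strands, the sense strand and the opposite strand. The deposited file lists name the assembly mm10 and the annotation GENCODE M4. No aligner, counter or mismatch limit is named in the labels or files. Lines for unmapped reads (29.4% and 25.8% of reads in replicates 1 and 2), reads aligned to several places (28.8% and 31.1%) and reads on no gene's sense strand (10.6% and 11.0%) were left out of library sizes.

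Sense counts were scaled to CPM. Gene names and coordinates came from GENCODE M21, mature and hairpin sequences from RefSeq GRCm38.p6, and all 4 genes matched. The hairpin letters were the same in both. To compare the 2 libraries, the 464 genes whose summed count reached 10 entered an exact binomial test (two-sided, TMM sizes, edgeR 4.0.16, scipy 1.17.1), with Benjamini-Hochberg adjustment at 0.05. edgeR's quasi-likelihood test has no residual degrees of freedom here. The test was tried on simulated data with counting error only. That is the setting it assumes, so the trial does not show how it behaves with further spread between libraries. Alternatives were both strands, other denominators, DESeq2 1.42.0 size factors, other count minimums, edgeR's exact test and leaving out a library.

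The members and lists were chosen with earlier results of these data known. Genes named beside the 4 members are the 2 nearest in level to each member with at least 10 counts in both libraries, and every gene of the DNA methyltransferase and the fibrosis and matrix lists. Marker genes of hepatocytes, erythroid and endothelial cells served to check the tissue. The genes of the shown seed matches, and those named from the comparison of shared strands, were chosen after their values were seen. Of the other marker lists, neural genes are mostly multi-copy and check nothing here. Mesenchyme summed to 2.36% and 2.55% of counts, leukocyte to 0.719% and 0.583%, and muscle to 0.0168% and 0.0389%. All of the muscle sum came from Mir206 and Mir208b. The Mir133a pair and Mir1a-1 added nothing to it. Each has a second copy and can lose reads to several placements, so their 0 unique counts do not show absence. Mir206 and Mir208b were lower in replicate 1 by the exact binomial test, with log2 ratios of -1.22 and -1.43. Of all 464 genes tested, 22.4% were lower by that test. Both also passed edgeR's test at a coefficient of variation of 0.1, as did 2.59% of the 464. The part of muscle cells in this difference was not tested.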

Additional observations from a re-analysis of the deposited data

How the results depend on the processing

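With the counts of both strands the locus ratio and the ratios among the 4 genes were unchanged by construction, since their opposite strand had 0 counts. Counts per hairpin base (chosen after seeing the data) only reweight the genes by length, and Mir29a and Mir29c are equally long. The ratios that involve a Mir29b gene then moved by less than 1 SD, a wide margin with n = 2. Mir29a over Mir29b-1 went from 148 ± 56.5 to 119. Leaving out a library gave 7.86 to 8.02 for the locus ratio, 7.93 to 8.24 for Mir29a over Mir29c, 2.06 to 2.86 for Mir29b-1 over Mir29b-2, and 108 to 188 for Mir29a over Mir29b-1. Mir29c over Mir29b-2, 47.4 over both, was 27.1 without replicate 2 and 67.7 without replicate 1, and the level of Mir29b-2 was 4.64 CPM without replicate 2 and 1.98 CPM without replicate 1. The family share was 0.108% with the counts of both strands and 0.0377% with all reads as denominator, both by construction, since the denominator grows. Between the libraries, 187 genes differed in the exact binomial test, against 12 in edgeR's exact test at a coefficient of variation of 0.1 and 5 at the estimated 0.162, which allow for more than counting error. The estimated 0.162 came from the same 2 libraries that it then compared. Few calls were therefore likely in advance, and a call lost there says little. With other scalings, filters and strands the count lay between 175 and 195. The call for Mir29a was lost with total counts, with DESeq2 size factors and in both edgeR tests, with adjusted p between 0.00404 and 1 over all alternatives. No paired analysis was possible because both libraries belong to 1 group. Depth limits the Mir29b genes, with 7 to 33 counts each.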

Other observations

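Genes like Mir29b-1 and Mir29b-2, in which a whole mature strand is also encoded at another locus while the other strand is not, numbered 49 among 555 counted genes with both arms in the RefSeq table. Of these 49 genes, 28 (57.1%) reached 10 CPM in both libraries, against 189 of 489 genes (38.7%) in which no arm was shared and 2 of 17 genes (11.8%) in which both were. The highest of the 49 were Mir92-1, of the miR-17-92 cluster, at 10114 and 8939 CPM, and Mir16-1, at 4855 and 5648 CPM. Mir29b-1 ranked 31 and Mir29b-2 ranked 36 within the 49, whose median level was 17.6 CPM. The median was 1.87 CPM in the 489 genes with no shared arm and 0 CPM in the 17 with both shared. The classes were not matched for kind of gene, so their shares do not show what sharing a strand does to the counts. The part of shared strands in these levels was not tested.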
